A study of Mus musculus with 6 samples.

Results

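UVRAG and the class III PI3-kinase complexes were described through 9 genes measured in mouse spleen libraries labelled as leukaemia. The genes were taken by name: Pik3c3, Pik3r4 and Becn1 for the shared core, Uvrag, Atg14 and Nrbf2 for the subunits specific to one complex, and Rubcn, Ambra1 and Sh3glb1 for regulators. They were 9 of the 40808 gene IDs in the deposited table, and 9 of 9 passed the filter on low counts that left 14110 genes to test. The labels describe the RNA as from leukaemia cells of the spleen of mice that had received a bone marrow transplant. Cell markers, given below, differed strongly between the groups, and the share of leukaemia cells in each library was not tested. One group of 3 libraries was labelled as receiving no Dox (replicates 4, 5 and 6), and the other group of 3 as receiving Dox (replicates 10, 11 and 12). The labels give no dose, duration, genotype, transgene, strain, sex or age, and do not say which gene Dox was meant to control. The study's title concerns the control of NOTCH through UVRAG, the ubiquitin ligase ITCH and the ESCRT machinery. The libraries read the 3′ end of each mRNA, so a transgene without the 3′ end of its own gene would not be counted under that gene. The labels do not state that each library came from a separate animal, so the p-values measure only the spread between these samples, which may be technical.

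VPS34, the product of Pik3c3, phosphorylates the membrane lipid phosphatidylinositol to make phosphatidylinositol 3-phosphate (PI3P), which recruits proteins with PI3P-binding domains. It works with the regulatory kinase-like subunit VPS15 (Pik3r4) and with Beclin 1 (Becn1). This core joins either ATG14, in complex I, which acts where autophagosomes form, or UVRAG, in complex II, which acts on endosomes and in their traffic to lysosomes. NRBF2 belongs to complex I, Rubicon (Rubcn) binds the UVRAG complex and restrains it, AMBRA1 links Beclin 1 to upstream signals, and the endophilin-like protein Bif-1 (Sh3glb1) binds Beclin 1 through UVRAG. In lymphocytes the kinase is known for its part in T cell survival and in the turnover of surface receptors.

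Total counts ran from 5541486 to 8725767 per library, and 3 counts, taken as the floor of detection, corresponded to 0.309 to 0.608 normalized CPM (counts scaled to a common total after TMM correction for library composition). The cell content of the libraries differed between the groups. Of 12 T cell markers, 11 were lower with Dox, and their summed level was 2442 to 2552 CPM without Dox and 207.7 to 267.0 CPM with Dox. Of 12 B cell markers, 12 were higher (51.0 to 52.6 CPM without Dox, 2137 to 2394 CPM with Dox). Of 12 myeloid markers, 9 were higher and 1, Adgre1, was lower (199.8 to 203.9 and 2519 to 2582 CPM), and the neutrophil marker Ly6g had 0 counts in each library without Dox. Of 10 erythroid markers, 5 were higher and 2 lower (94160 to 104200 and 133300 to 143200 CPM), and of 10 stromal and endothelial markers, 4 were higher and 2 lower (400.9 to 431.6 and 822.5 to 945.3 CPM). Summed counts of 4 Y-linked genes (Ddx3y, Uty, Kdm5d, Eif2s3y) were 545 to 801 without Dox and 0 with Dox. The X-linked Xist, which is transcribed in female cells, had 193 to 324 counts (32.7 to 48.4 CPM) without Dox and 3347 to 5669 (455 to 747 CPM) with Dox, so the libraries without Dox held both signals. The labels do not name the lineage of the leukaemia, and none of the 12 T cell markers was at 0 in any library. In bulk RNA, fewer cells of a type and less RNA per cell cannot be told apart, and the part of cell content or sex in each difference below was not tested.

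The test called 4 of the 9 genes at an adjusted p-value under 0.05, with Uvrag and Rubcn higher and Pik3c3 and Ambra1 lower with Dox (edgeR quasi-likelihood test, Benjamini-Hochberg over all tested genes). Among all tested genes 45.6% passed the same threshold, 23.6% higher and 22.1% lower, so the share of 44.4% among the 9 was near the background. In 5 of the 9 the groups were separate, against 59.6% of all tested genes. The median log2 fold change of the 9 was 0.095, beside 0.073 for all tested genes. The members did not move as a block: the catalytic subunit fell, its obligate partners Pik3r4 and Becn1 did not pass the threshold, and the complex-specific subunits had positive log2 fold changes.

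**Figure D1:**
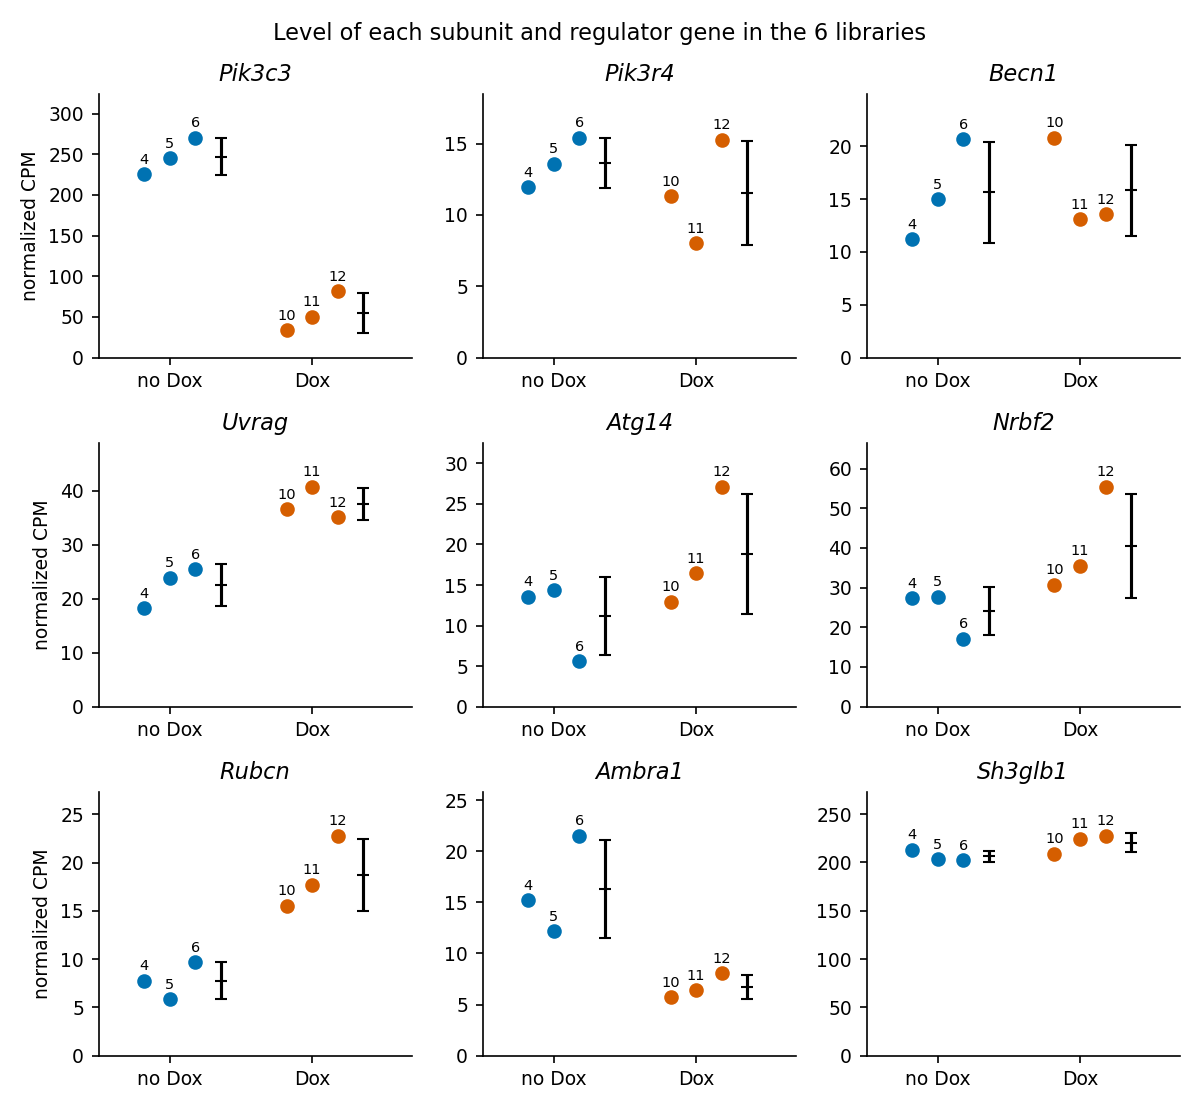
Normalized CPM (y axis, from 0) of each of the 9 genes in the 6 libraries; points are libraries labelled with their replicate number, and black bars are the group mean ± SD (n = 3). The Pik3c3 points lie at 225 to 271 CPM without Dox and at 33.8 to 82.0 CPM with Dox, and those of Sh3glb1 lie between 202 and 228 CPM in both groups.

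Among the core subunits, Pik3c3 (Entrez gene 225326, chromosome 18), the lipid kinase itself, showed the largest difference of the 9 genes. It had 225, 245 and 271 CPM in replicates 4, 5 and 6 without Dox, from 1208 to 1596 counts, and 33.8, 50.3 and 82.0 CPM in replicates 10, 11 and 12 with Dox, from 248 to 622 counts. Each Dox library was below each library without Dox, and the Dox libraries spread by 2.43-fold among themselves where the others spread by 1.20-fold. The means were 247 ± 23 and 55.3 ± 24.5 CPM (SD, n = 3 each), 4.46-fold lower with Dox. On the log2 scale the fold change was -2.16 ± 0.29 (SE), with a 95% interval from -2.81 to -1.51 (edgeR, adjusted p = 0.00024). Of all tested genes, 7.94% had a lower log2 fold change.

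Pik3r4 (Entrez gene 75669, chromosome 9, 105642995 to 105687655), which encodes the VPS15 scaffold that binds VPS34, had 11.9, 13.6 and 15.4 CPM without Dox and 11.3, 8.03 and 15.3 CPM with Dox. The groups overlapped: replicates 10 and 11 lay under the range without Dox and replicate 12 near its top. The log2 fold change of -0.24 had a 95% interval from -1.04 to 0.55 and did not pass the threshold (adjusted p = 0.605, edgeR). Becn1 (Entrez gene 56208, chromosome 11, 101288258 to 101302286), the gene of the Beclin 1 subunit to which BCL2 proteins bind, had 11.2, 15.0 and 20.7 CPM without Dox and 20.8, 13.1 and 13.6 CPM with Dox. The highest library of each group was nearly the same, and the groups overlapped over most of their range. The difference was 0.018 on the log2 scale, with a 95% interval from -0.76 to 0.80 (adjusted p = 0.971, edgeR), so a change of less than about this size in either direction was not detectable. The annotated 3′ end of Becn1 lies within Cntd1 on the opposite strand. Cntd1 had 0 to 7 counts per library against 74 to 153 for Becn1, and whether the authors counted by strand is not given in the sources used here.

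Of the subunits that define a complex, Uvrag (Entrez gene 78610, chromosome 7, 98886742 to 99141167) rose. It had 18.2, 23.9 and 25.4 CPM without Dox and 36.6, 40.8 and 35.1 CPM with Dox, from 118 to 396 counts. The lowest Dox library stood above the highest library without Dox, and Uvrag had the smallest relative spread of the complex-specific subunits with Dox (coefficient of variation 7.87%). The rise was 1.67-fold, or 0.74 ± 0.24 (SE) on the log2 scale, with a 95% interval from 0.21 to 1.26 (edgeR, adjusted p = 0.028). Of all tested genes, 33.5% had a higher log2 fold change. The call was lost without replicate 4, 5, 6, 10 or 11 (adjusted p = 0.164, 0.105, 0.0732, 0.0523 and 0.0681) and kept without replicate 12 (adjusted p = 0.0231, edgeR). With the trend of fold change with transcript length removed, the log2 fold change was 0.38 (adjusted p = 0.224, edgeR).

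The 250 bases before an annotated start of Uvrag are shown because this is the gene on which the study's title turns (chr7:99141145-99141394, minus strand, GRCm38.p6, from RefSeq). This start lies 23 bases inside the gene span given above. Capitals mark the 3 matches to CCAAT, a motif read by the factor NF-Y, on the printed strand. CCAAT was searched on both strands, and it was present in the promoter windows (250 bases before to 50 after a start) of 37.4% of the 32851 starts in the RefSeq table.
Uvrag: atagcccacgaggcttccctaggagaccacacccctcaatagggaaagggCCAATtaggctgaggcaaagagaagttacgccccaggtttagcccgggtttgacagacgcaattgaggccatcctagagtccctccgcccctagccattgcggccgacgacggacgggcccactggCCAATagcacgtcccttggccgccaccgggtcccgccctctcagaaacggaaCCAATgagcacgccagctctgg

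Atg14 (Entrez gene 100504663, chromosome 14, 47540893 to 47568434), the counterpart of Uvrag in complex I, had a log2 fold change of like size and a wider spread. It had 13.6, 14.4 and 5.59 CPM without Dox and 12.9, 16.5 and 27.1 CPM with Dox, from 33 to 206 counts. Replicate 10 with Dox lay within the range without Dox, replicate 6 was well under the other libraries of its group, and replicate 12 was well above those of its own. The log2 fold change of 0.75 had a 95% interval from -0.22 to 1.72 and did not pass the threshold (adjusted p = 0.186, edgeR). It was 0.34 without replicate 6 and 0.38 without replicate 12, the ends of the spread in each group.

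Nrbf2 (Entrez gene 641340, chromosome 10, 67266689 to 67285343), which encodes a subunit that joins complex I through ATG14, followed the same libraries. It had 27.3, 27.8 and 17.1 CPM without Dox and 30.8, 35.5 and 55.5 CPM with Dox. The groups were separate, with a gap of 27.8 to 30.8 CPM between them. Its log2 fold change, 0.75 ± 0.30 (SE) with a 95% interval from 0.08 to 1.43, fell short of the threshold (edgeR, adjusted p = 0.066). It was 0.46 without replicate 6 and 0.45 without replicate 12. The ratio of Atg14 to Nrbf2 counts, chosen after the values were seen, was 0.497, 0.518 and 0.327 in the group without Dox, and 0.420, 0.464 and 0.489 with Dox, a narrower range than that of either gene.

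**Figure D2:**
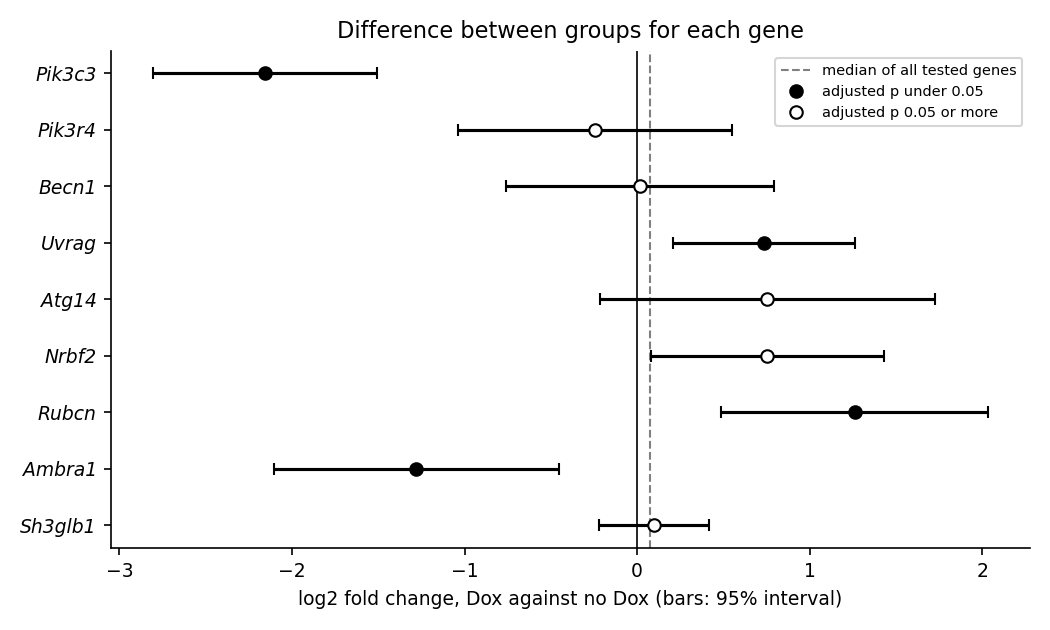
Log2 fold change with Dox against no Dox (x axis) of the 9 genes, with bars for the 95% interval; filled points had an adjusted p-value under 0.05 and the dashed line is the median of all tested genes. Pik3c3 and Ambra1 lie left of 0, Uvrag and Rubcn right of it, and the intervals of Pik3r4, Becn1, Atg14 and Sh3glb1 include 0.

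Among the regulators, Rubcn (Entrez gene 100502698, chromosome 16, 32821702 to 32877729), whose product Rubicon holds back the UVRAG complex, rose. It had 7.76, 5.88 and 9.66 CPM without Dox and 15.5, 17.7 and 22.8 CPM with Dox, from 29 to 173 counts. Every Dox library was above every library without Dox. The means were 7.77 ± 1.89 and 18.7 ± 3.7 CPM (SD, n = 3 each), 2.40-fold higher with Dox. This was 1.26 ± 0.35 (SE) on the log2 scale (edgeR, adjusted p = 0.014). The call was lost without replicate 4 or 5 (adjusted p = 0.0605 and 0.0859). It was also lost when the length trend was taken out (0.88, adjusted p = 0.0637).

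Ambra1 (Entrez gene 228361, chromosome 2, 91730138 to 91918849), which encodes a scaffold that binds Beclin 1 and also serves cullin ubiquitin ligases, fell. It had 15.2, 12.2 and 21.5 CPM without Dox and 5.72, 6.38 and 8.04 CPM with Dox, from 42 to 127 counts. The groups were separate, and the library without Dox nearest to the Dox group was replicate 5. The fall was 2.43-fold, or -1.28 ± 0.37 (SE) on the log2 scale (edgeR, adjusted p = 0.018). The call was lost without replicate 4 or 6 (adjusted p = 0.0513 and 0.0777) and with library size as the only scaling (-0.98, adjusted p = 0.0571).

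Sh3glb1 (Entrez gene 54673, chromosome 3, 144683665 to 144720408), which encodes the membrane-curving protein Bif-1, was the steadiest of the 9. It had 213, 203 and 202 CPM without Dox and 209, 225 and 228 CPM with Dox, from 1004 to 2182 counts. The coefficient of variation was 2.89% without Dox and 4.56% with Dox. Its log2 fold change was 0.095, with a 95% interval from -0.22 to 0.41 (adjusted p = 0.616, edgeR). This interval was the narrowest of the 9. With library size as the only scaling, where the median of all genes moved up by 0.31, the log2 fold change was 0.41 (adjusted p = 0.0373).

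The RefSeq table held promoter windows for 7 of the 9 genes, and 3 of the 7, Nrbf2, Atg14 and Rubcn, contained the E-box CACGTG. This palindromic motif, the same on both strands, is read by MYC-MAX and by the MiT/TFE factors of lysosome and autophagy genes, and 7.15% of the 32851 windows held it. A gene was counted if any of its windows held the motif, whereas this share is of single windows. The log2 fold changes of the 3 genes were 0.75, 0.75 and 1.26, and only that of Rubcn passed the threshold. Uvrag, at 0.74, was level with Nrbf2 and Atg14, and its window did not hold the motif. Windows of 30 bases around each match are shown because these factors are known for autophagy genes, from RefSeq on GRCm38.p6, minus strand, with the E-box in capitals. The match of Nrbf2 (chr10:67285472-67285501) began 208 bases before the start used in the RefSeq table, which lies 62 bases inside the gene span given above, and 146 bases before the outer end of that span. That of Atg14 (chr14:47568418-47568447) began 1 base before its start, which is the end of its gene span, and ran over it. That of Rubcn (chr16:32868437-32868466) began 88 bases before the downstream one of its 2 starts, which lie 9363 bases apart. The window of this downstream start lies wholly inside the gene span given above. The window of the outer start did not hold the motif, and which start gave the counted RNA was not tested.
Nrbf2: gacccggctcatCACGTGacagccgccgcc
Atg14: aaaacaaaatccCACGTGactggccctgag
Rubcn: cgcctagcacatCACGTGtacccaggttag

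A second motif, TGGGAA, the core read by the NOTCH partner RBPJ, was searched on both strands in the same windows. It was present for Atg14, Rubcn and Sh3glb1 of the 7 genes, and in 25.6% of all windows. CCAAT was held by Pik3r4, Uvrag and Rubcn, the GC box GGGCGG by Uvrag, Atg14, Nrbf2, Rubcn and Sh3glb1 (35.7% of all windows), and the ETS core GGAAGT by Pik3r4, Atg14, Nrbf2 and Rubcn (23.8%), each searched on both strands. Here too a gene was counted if any of its windows matched, and the shares are of single windows. Such matches are descriptions of the sequence only.

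Ratios between genes within a library do not depend on how libraries were scaled to each other. Counts of 3′ ends are not scaled by length, and genes differ in how well they are primed, so the ratios were read across libraries and not as protein proportions. The ratio of Uvrag to Pik3c3 counts was 0.0808, 0.0977 and 0.0940 in the group without Dox, and 1.08, 0.810 and 0.428 with Dox. The mean ratio was 7.97-fold higher with Dox on the log scale, and the groups were far apart. The ratio of Atg14 to Pik3c3 was 0.0603, 0.0588 and 0.0207 in the group without Dox, and 0.383, 0.327 and 0.331 with Dox, 8.27-fold higher. These ratios largely restate the fall of Pik3c3 itself: 92% of all tested genes had a higher log2 fold change than Pik3c3, and so would stand higher against it.

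The balance of the subunits that define complex II and complex I, Uvrag to Atg14, was 1.34, 1.66 and 4.55 in the group without Dox, and 2.83, 2.48 and 1.29 with Dox. The groups overlapped, and the mean log2 ratio differed by -0.05 between them, less than the SD of 0.94 and 0.61 within the groups. Uvrag against its partner Becn1 was 1.63, 1.59 and 1.23 in the group without Dox, and 1.76, 3.12 and 2.58 with Dox, with no overlap between the groups and 1.64-fold higher with Dox. This ratio largely restates the rise of Uvrag (0.74 on the log2 scale), since Becn1 differed by 0.018. Uvrag against its inhibitor Rubcn was 2.35, 4.07 and 2.63 in the group without Dox, and 2.36, 2.30 and 1.54 with Dox. These values just overlapped, and the mean log2 ratio was lower by 0.53 with Dox, somewhat more than the SD within each group (0.42 and 0.35).

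**Figure D3:**
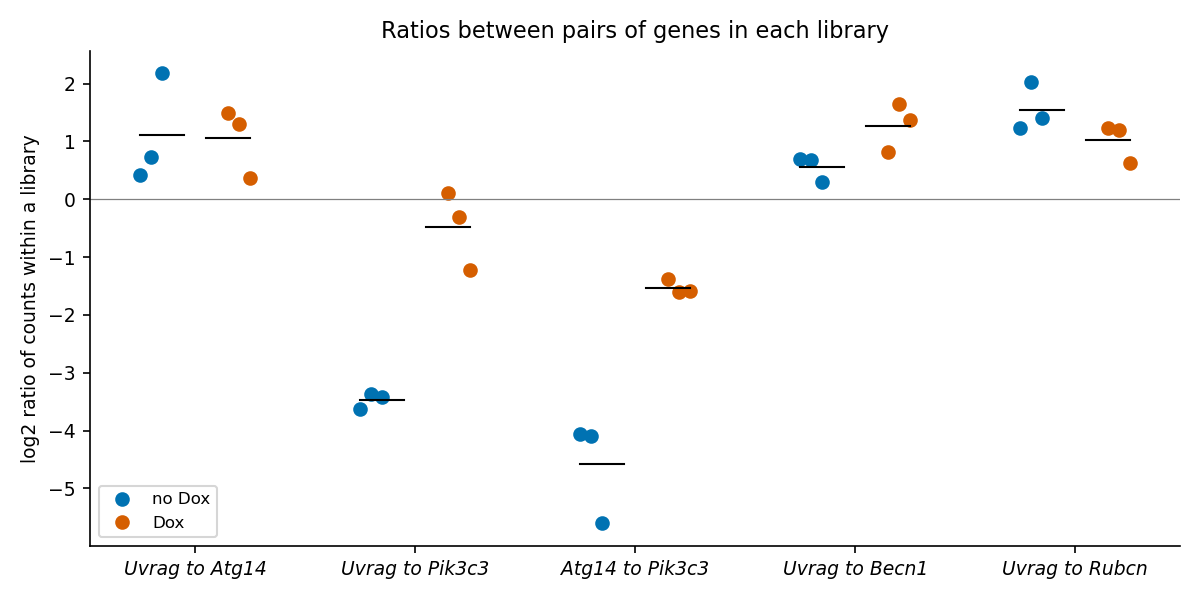
Log2 ratio of counts of 2 genes within each library (y axis) for 5 pairs; points are libraries and black lines are group means (n = 3). The ratios of Uvrag and of Atg14 to Pik3c3 are higher in each Dox library, at log2 values of -1.61 to 0.12 against -5.60 to -3.36, and the ratio of Uvrag to Atg14 overlaps between groups.

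The spread among replicates followed libraries as well as genes. With Dox, replicate 12 was the highest of its group for 7 of the 9 genes, where 38.1% of all tested genes were highest in it. The exceptions were Becn1, highest in replicate 10, and Uvrag, highest in replicate 11 and lowest in replicate 12. Without Dox, replicate 6 was the highest for 6 genes and the lowest for the other 3, Atg14, Nrbf2 and Sh3glb1. Among all tested genes 35.8% were highest and 37.9% lowest in replicate 6. The summed T cell marker level in replicate 12, 207.7 CPM, was the lowest of the 6 libraries, and its part in the spread was not tested.

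Each of the 9 genes was refitted under 16 other settings of scaling, filter, genes kept, test, length trend and left-out library. The length-trend fit was added after the data were seen. Pik3c3 kept its direction and stayed past the threshold in 16 of 16, with log2 fold changes from -2.57 (without replicate 12) to -1.86. Uvrag kept its direction in 16 and passed the threshold in 8, Rubcn and Ambra1 kept their direction in 16 and passed in 13 each. Nrbf2 kept its direction in 16 and passed in 5, and Atg14 kept its direction in 16 and passed in 0 (adjusted p from 0.0611 to 0.566). Becn1 changed sign in 7, Sh3glb1 in 3 and Pik3r4 in 1. Left-out libraries changed the number of genes called to 1 without replicate 4 and to 2 without replicate 5 or 6, in place of 4. The share of all tested genes called fell in the same fits, from 45.6% to 31.2% without replicate 4, 30.6% without replicate 5 and 31.8% without replicate 6.

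**Figure D4:**
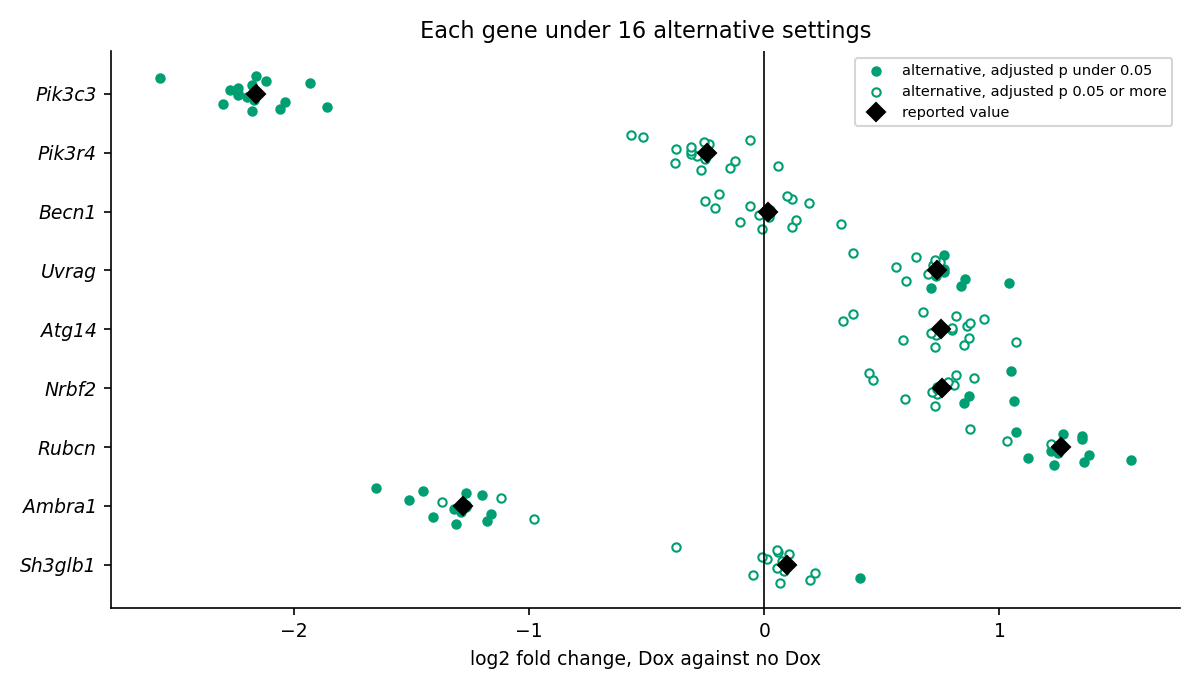
Log2 fold change (x axis) of each gene as reported (diamonds) and under 16 other settings (circles, filled where the adjusted p-value was under 0.05). Pik3c3 is filled throughout, between -2.57 and -1.86, while circles of Becn1 lie on both sides of 0, between -0.25 and 0.32.

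The genes whose pattern over the 6 libraries was most like that of Uvrag were named by Pearson's r of log2 CPM among the 7054 other tested genes of at least median level. They were Daxx (r = 0.995), Adam19 (0.993), Il18 (0.993), Tmem63a (0.991) and Ceacam1 (0.990). The difference between the groups is shared by all 6 points and sets most of these values, and 126 genes had an r of 0.95 or more. Like Uvrag, Daxx was lowest in replicate 4 of the group without Dox (31.8, 41.5 and 46.1 CPM) and highest in replicate 11 of the Dox group (76.3, 84.4 and 65.4 CPM).

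Genes that act around the complexes were counted in lists written from general knowledge. Of 20 tested binders and regulators of Beclin 1 (of 22 listed), 6 were higher and 4 lower with Dox, and the median log2 fold change was 0.39. The share called, 50%, was near the 45.6% of all tested genes. The number lower was 2 without replicate 4 or 5, and with library size as the only scaling 9 were higher and 2 lower. Bcl2 rose by 2.41 (SE 0.23) and Bcl2l2 by 1.37 (SE 0.43) on the log2 scale. Their relatives Bcl2l1 (1.34, SE 0.24) and Mcl1 (1.04, SE 0.16), named after their values were seen, also rose. Bcl2, whose product binds the BH3 domain of Beclin 1, had 23.7, 21.9 and 31.7 CPM without Dox and 152, 153 and 106 CPM with Dox. Bad, a BH3-only protein gene, fell by 0.85 on the log2 scale (SE 0.31) and passed narrowly (adjusted p = 0.0481, edgeR). Hmgb1, a chromatin protein gene with many processed pseudogenes and so uncertain, fell by 1.27 on the log2 scale. Rubcnl, the relative of Rubcn whose product Pacer favours the UVRAG complex, was named after its values were seen. It had 8, 10 and 1 counts without Dox and 150, 166 and 81 with Dox, a log2 fold change of 3.84 ± 0.68 (SE; adjusted p = 0.0013, edgeR). Ulk1, the autophagy kinase that acts on Beclin 1, was also named after its values were seen and fell by 1.64 on the log2 scale (SE 0.43).

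Of 19 tested enzymes that make or remove phosphoinositides (of 21 listed), 4 were higher and 1 lower, with a median of -0.21. The share called, 26.3%, was under the 45.6% of all tested genes. The number lower was 3 without replicate 10 and 2 without replicate 12, the median ran from -0.24 to -0.07 with a library left out, and it was 0.09 with library size as the only scaling. With the length trend removed, 4 were higher and 3 lower, with a median of -0.39. The split was 3 higher and 3 lower with limma-voom. The PI3P 5-kinase gene Pikfyve rose by 1.85 (SE 0.24) and the class II PI3-kinase gene Pik3c2a by 1.70 (SE 0.23) on the log2 scale, and the PI3P phosphatase gene Mtmr2 fell by 1.70 (SE 0.31). Pikfyve and Pik3c2a differed in direction from Pik3c3, whose lipid product Pikfyve uses.

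Of 25 tested PI3P effectors (of 26 listed), 13 were higher and 1, Hgs, was lower, and the median log2 fold change was 1.13. The share called, 56.0%, compares with 45.6% of all tested genes. Hgs passed narrowly (adjusted p = 0.042, edgeR). It was not called without replicate 4, 5, 6 or 11, where 0 genes were lower, and 2 were lower without replicate 12. The number lower was also 0 with upper-quartile factors, at least 10 counts in every library, and DESeq2. With library size as the only scaling, 16 were higher and 0 lower. Ncf4, a phagocyte oxidase subunit gene, rose by 3.09 (SE 0.33) and the kinase gene Sgk3 by 1.91 (SE 0.30) on the log2 scale, and the endosome tether gene Eea1, named after its values were seen, by 1.51 (SE 0.21). With the length trend removed the median was 0.66, with 11 higher and 0 lower. The myeloid markers rose with Ncf4, and their part in it was not tested.

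Of 24 tested tethers, SNAREs and Rab GTPases that work with UVRAG on endosomes, 9 were higher and 5 lower, with a median of 0.19. The share called, 58.3%, compares with 45.6% of all tested genes. The number higher was 5 without replicate 5 and 6 without replicate 6, the number lower was 3 without replicate 4, and the median was 0.04 without replicate 12. With library size as the only scaling, 10 were higher and 2 lower, with a median of 0.50. Vamp8 (1.86 ± 0.25) and Vps39 (1.39 ± 0.30) rose, while Vamp7 and Rab7, the late endosome GTPase gene, fell by 0.85 (log2 scale; SE 0.28 and 0.22). Of the 6 subunit genes of the HOPS tether, picked out after their values were seen, Vps11, Vps16, Vps33a, Vps39 and Vps41 rose, and Vps18 did not (-0.30 on the log2 scale, adjusted p = 0.605, edgeR). Vps33a passed narrowly (adjusted p = 0.0468, edgeR), and 23.6% of all tested genes were called higher. Without replicate 5, 9 genes of this list of tethers, SNAREs and Rab GTPases were called in place of 14, in a fit where 30.6% of all tested genes were called.

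Of 8 tested partners of UVRAG in the nucleus and in apoptosis (of 9 listed), 2 were higher and 5 lower, with a median of -1.32. Xrcc6, the Ku70 subunit gene of DNA end joining, fell by 3.86 (SE 0.20), and Bax, the death effector gene whose product UVRAG binds, by 2.99 (SE 0.33) on the log2 scale. Xrcc6 had 266, 236 and 235 CPM without Dox and 20.4, 15.7 and 14.8 CPM with Dox. Cep63, a centrosome gene, rose by 1.29 (SE 0.22) and Cul4a, a cullin gene, by 0.94 (SE 0.19). The share called, 87.5%, compares with 45.6% of all tested genes (23.6% higher, 22.1% lower), and the counts of this list were 2 higher and 5 lower in each of 18 other settings.

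**Figure D5:**
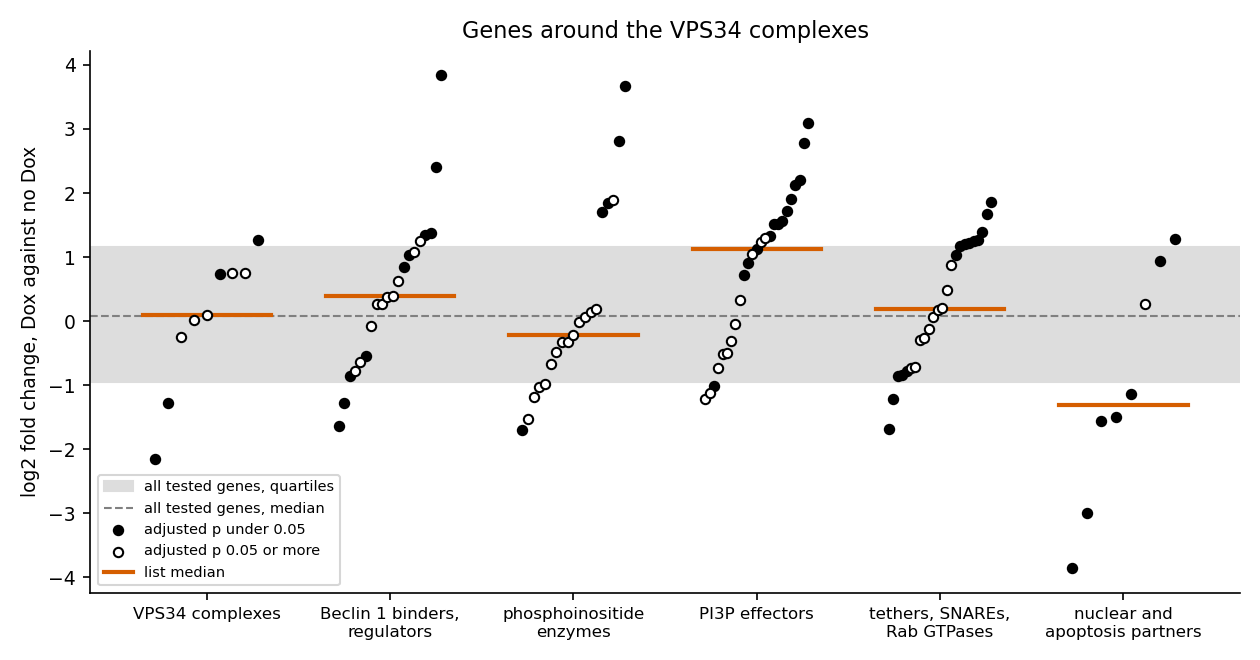
Log2 fold change (y axis) of the tested genes of the VPS34 complexes and of the 5 lists around them, sorted within each list; filled points had an adjusted p-value under 0.05, orange bars are list medians, and the grey band and dashed line are the quartiles (-0.95 and 1.16) and median of all tested genes. The list medians run from -1.32 for the nuclear and apoptosis partners to 1.13 for the PI3P effectors.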

How the data were processed

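RNA of 6 spleen libraries was sequenced from mRNA 3′ ends (QuantSeq forward kit, per the labels' protocols). The authors deposited 1 table of raw counts per Entrez gene, with 1 column per library. The submitters' processing notes name STAR, featureCounts and GRCm38, without versions; settings, strand use and annotation are not given in the sources used here. Symbols came from the RefSeq gene table of GRCm38.p6 (96.5% of gene IDs matched).

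Testing used edgeR 4.0.16 (R 4.3.3) with filterByExpr (minimum count 10, minimum total 15), TMM scaling, quasi-likelihood F-test of Dox against no Dox on 6 libraries without covariates, and Benjamini-Hochberg adjustment over 14110 genes with a threshold of 0.05. Intervals came from the F statistic and cover 95%. The procedure was tested on simulated data. Alternatives were other scalings, filters and thresholds, DESeq2 1.42.0, limma 3.58.1 (voom) and leaving out each library. Counts are reads, not molecules, so floors cover counting error only.

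Members and lists were chosen with earlier results of these data known. Besides the 9 members, the text names by rule the 2 genes per list and direction with the largest change among called genes with separate groups and at least median level, and the 5 genes most correlated with Uvrag. Bcl2l1, Mcl1, Hgs, Rubcnl, Ulk1, Eea1 and the HOPS genes other than Vps39 were named after their values were seen.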

Additional observations from a re-analysis of the deposited data

How the results depend on the processing

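No paired analysis was possible because replicate numbers differ between the groups. At a threshold of 0.01, 1 of the 9 genes was called, 0 higher and 1 lower (edgeR; 3 higher and 2 lower at an unadjusted p-value under 0.05), and 6 genes each of the Beclin 1 list and of the tether list were called, with 31.2% of all tested genes. With library size only, 4 were called higher and 1 lower. The number higher was 1 without a low-count filter, with DESeq2 and with the length trend removed, an alternative added after the data were seen. With the length trend removed this gene was Nrbf2 (1.05, adjusted p = 0.0182, edgeR), and neither Uvrag nor Rubcn was called. Phosphoinositide enzymes called were 8 at a threshold of 0.1 (53.3% of all tested genes) and 8 with voom weighted by group (49.5%). Over fits leaving out 1 library each, the genes called ran from 1 to 4, those higher from 0 to 2 (0 without replicate 4 or 5, where 1 and 2 were higher at an unadjusted p-value under 0.05; 1 without replicate 6, 10 or 11), those lower from 1 to 2 (1 without replicate 4 or 6), and the tether list from 9 to 15, with 30.6% to 47.5% of all tested genes. The Uvrag log2 fold change was 0.604 without a filter (adjusted p = 0.152), 0.697 with DESeq2 (0.0611) and 0.377 with the length trend removed (0.224), and 0.562 to 0.766 with a library left out. Signs changed for Pik3r4 with library size only (0.0575), for Becn1 with RLE factors (-0.00786), no filter (-0.103), DESeq2 (-0.0223), the length trend removed (-0.191) and a library left out (-0.254 to 0.192), and for Sh3glb1 with no filter (-0.047), the length trend removed (-0.375) and a library left out (-0.00975 to 0.106). None of these sign changes passed the threshold, and the cause of the other changes was not tested. Higher genes were 51.6% of all genes called, 64.3% with library size only, 45.1% with limma-voom and 44.7% with no filter.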
